A study of Rattus norvegicus with 18 samples.

Results

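The iron storage, transport and sensing genes were examined in the cerebral cortex of rats after subarachnoid hemorrhage (SAH), a bleed into the space around the brain. They were chosen by symbol: the ferritin chains Fth1 and Ftl1, the uptake genes Tfrc, Slc11a2 and Steap3, the export genes Slc40a1 and Cp with the export regulator Hamp, and the iron sensors Ireb2 and Aco1. The 10 symbols matched 11 of the 30735 rows of the deposited table, because Slc40a1 had 2 rows. RNA was sequenced from 18 adult Sprague Dawley rats aged 8 to 10 weeks, with 1 library per rat and 6 rats per group, named sham, SAH 1d and SAH 7d. SAH was produced by pushing a filament through an artery at the base of the brain, and cortex was taken 1 or 7 days later. Sham rats had the same operation without the perforation. The day on which sham cortex was taken and the sex of the rats were not given. The paper describes cortex of the operated side, whereas the labels name both sides, and 1 protocol in the labels speaks of mice although the organism given is the rat.

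Blood in the subarachnoid space releases hemoglobin, and the iron of its heme has to be stored, exported or bound to a carrier. Ferritin stores iron in a shell of heavy chains, which oxidise it, and light chains, which help it to mineralise. The transferrin receptor brings iron into cells, ferroportin lets it out with the help of a copper oxidase such as ceruloplasmin, and hepcidin removes ferroportin from the membrane. In cells short of iron, the iron regulatory proteins bind ferritin transcripts and block their translation, and they protect the transcript of the transferrin receptor from decay. Counts of transcripts record neither translation nor protein.

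Ceruloplasmin and hepcidin are both known from the liver as acute-phase genes, and the 250 bases before their starts are shown because they were the genes of this group with the clearest and the weakest signal. The sequences are those of RefSeq for the GRCr8 build, where 8 of the 10 symbols had an entry. Entries were not found for Fth1 and Ftl1. The Cp window lies at chr2:104368420-104368669 on the plus strand and the Hamp window at chr1:95300272-95300521 on the minus strand, both written 5′ to 3′ with the matches to the motifs searched in capitals.
Cp: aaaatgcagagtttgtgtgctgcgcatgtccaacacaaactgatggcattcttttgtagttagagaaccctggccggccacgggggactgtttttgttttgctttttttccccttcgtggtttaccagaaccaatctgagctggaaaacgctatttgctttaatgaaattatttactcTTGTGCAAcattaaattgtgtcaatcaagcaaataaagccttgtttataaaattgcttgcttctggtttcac
Hamp: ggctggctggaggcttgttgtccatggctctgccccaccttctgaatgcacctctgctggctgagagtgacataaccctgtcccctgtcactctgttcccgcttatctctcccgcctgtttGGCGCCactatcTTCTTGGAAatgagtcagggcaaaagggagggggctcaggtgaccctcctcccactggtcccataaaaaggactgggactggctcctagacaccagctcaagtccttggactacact

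In the Hamp window the capitals mark GGCGCC, the letters of a BMP response element, 129 bases before the start, and a match to the STAT motif TTCNNNGAA, 117 bases before it. The first was found in 11.02% and the second in 8.87% of the 33469 rat promoters searched over 300 bases each. In the Cp window the capitals mark a match to the C/EBP motif TTNNGCAA, 72 bases before the start, which 10.6% of the promoters held. That motif was added after the Cp sequence had been read. The search covered both strands and also the hypoxia motif ACGTG (19.3% of promoters) and the antioxidant motif TGACNNNGC (12.1%), and matches of different motifs did not overlap in these windows. These matches describe letters and not binding.

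Total counts ranged from 27270026 to 38271014 per library, and 18444 genes passed the filter on low counts. Of the 11 rows, 10 passed, which belong to 9 genes, and Hamp did not. Levels are given in CPM, the usual unit of counts scaled to the library total, here after TMM normalization, and a gene was called at a Benjamini-Hochberg adjusted p under 0.05 over all tested genes in the quasi-likelihood test of edgeR. SAH 7d-5 and SAH 1d-3 stood apart from their groups. SAH 7d-5 held the highest value of all 18 libraries for 7 of the 10 tested rows, against 24.3% of all tested genes, and SAH 1d-3 for the other 3, against 18.04%. SAH 7d-5 also had 8720 CPM of monocyte and macrophage markers, where the rest of its group had 93.1 to 285, and 2134 CPM of neuron markers. Lyz2 alone had 7914 of these 8720 CPM, and each other marker of that list was also highest of the group there. The microglia markers summed to 2419 CPM in SAH 7d-5, against 320 to 1018 in the rest of its group. In SAH 1d-3 the monocyte and macrophage sum was 577 CPM, against 95.9 to 132 in the rest of its group. Of the 577 CPM, Lyz2 had 471, and Mrc1 and Cd163 were not highest of the group there. The main values of the members that rest on these libraries are given with and without them. In bulk tissue, fewer cells of a type and less RNA per cell cannot be told apart.

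**Figure D1:**
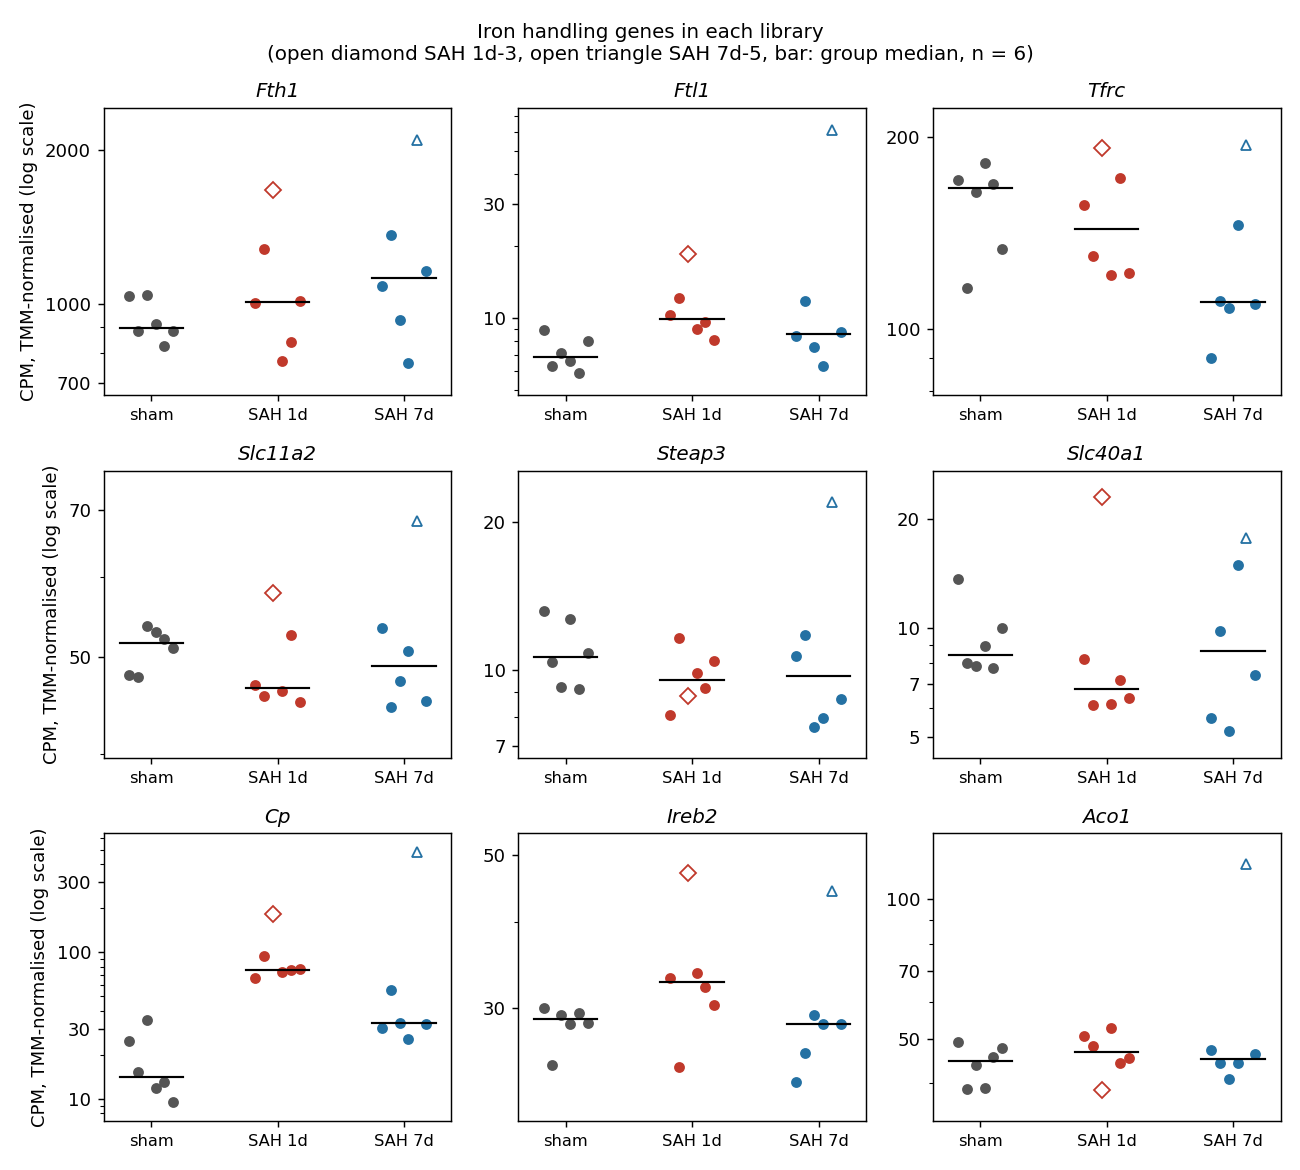
CPM of 9 iron handling genes on log axes, with 1 point per library and a bar at the group median (n = 6 per group). Every SAH 1d value of Cp lies above every sham value, SAH 7d-5 (open triangle) is the highest SAH 7d value in all 9 panels, and SAH 1d-3 (open diamond) is the highest SAH 1d value in 7 of them.

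The first comparison asks how the cortex differed 1 day after the bleed. Of the 10 tested rows, 2 were called in SAH 1d versus sham, Cp and Ftl1, and both were higher. Over all tested genes 25.4% were called, so the share of the members was close to the background. When the log2 fold change also had to be 1 or more in size, Cp alone was left, against 6.64% of all genes. Cp was also the only member whose groups did not overlap, against 13.5% of all genes. The median log2 fold change was 0.15 over the 10 rows and 0.01 over all tested genes.

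Fth1, the ferritin heavy chain and the most abundant member, had 825, 899 and 1043 CPM as the lowest, median and highest sham values. The SAH 1d values were 773, 1008 and 1671 CPM. The groups overlapped, with 2 of 6 SAH 1d libraries above every sham library. The log2 fold change was 0.22 (95% interval -0.13 to 0.57) and was not called (edgeR adjusted p = 0.328), and without SAH 1d-3 it was 0.07 (adjusted p = 0.718).

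Ftl1, the ferritin light chain, had 5.90, 6.89 and 8.95 CPM in sham cortex and 8.09, 9.95 and 18.4 CPM in SAH 1d cortex. In 5 of 6 SAH 1d libraries its level was above every sham value, and the sixth lay within the sham range. Ftl1 rose by a log2 fold change of 0.64 (SE 0.19), which is 1.56-fold with a 95% interval of 1.18 to 2.07 (edgeR adjusted p = 0.0261). The highest value came from SAH 1d-3, and without that library the log2 fold change was 0.45 (adjusted p = 0.0237). The call was lost without sham-2 (adjusted p = 0.0555), sham-4 (adjusted p = 0.0542) or sham-5 (adjusted p = 0.0598) and in a fit of all 18 libraries (adjusted p = 0.354). Over the other settings that kept every library in the comparison, the adjusted p of Ftl1 ranged from 0.0076 to 0.0482. Ferritin genes have many copies: RefSeq lists 21 loci named as like Ftl1, of which 15 are pseudogenes, and 6 like Fth1, of which 5 are pseudogenes. No locus of those names was in the count table, and how reads that fit several copies were counted is not given in the sources used here. The ferritin values are uncertain for that reason.

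Transcripts of the ferritin chains were compared by the log2 ratio of Fth1 to Ftl1 in FPKM, which takes transcript length into account. It was 7.16 ± 0.17 (SD, n = 6) in sham cortex, 6.75 ± 0.20 in SAH 1d cortex and 6.78 ± 0.76 in SAH 7d cortex. As a plain ratio, Fth1 was 143 times the FPKM of Ftl1 in sham cortex and 107 times in SAH 1d cortex. The size of this ratio is uncertain, because Ftl1 has 21 like loci and Fth1 has 6. How reads that fit several copies were counted is not known, so the ratio does not give the balance of the chains. The SAH 1d ratio was lower than the sham ratio by 0.42 on the log2 scale (exact two-sided permutation p = 0.00866), which became 0.052 after adjustment over the 6 ratio tests and did not pass. SAH 7d differed from sham by -0.38 (exact permutation p = 0.19, adjusted 0.286) and from SAH 1d by 0.03 (exact permutation p = 0.983, adjusted 0.983). SAH 7d-5 had a log2 ratio of 5.23, the lowest of all libraries, and without it SAH 7d differed from sham by -0.07 (exact permutation p = 0.381) and from SAH 1d by 0.34 (exact permutation p = 0.0173, unadjusted).

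None of the 3 uptake genes was called 1 day after SAH. Tfrc, the transferrin receptor, had 116, 167 and 183 CPM in sham cortex and 122, 143 and 193 CPM in SAH 1d cortex. Its ranges overlapped almost fully, and the log2 fold change was -0.08 (95% interval -0.38 to 0.23, edgeR adjusted p = 0.723). Slc11a2, the divalent metal transporter that moves iron out of endosomes, had 47.7, 51.6 and 53.6 CPM in sham cortex and 45.0, 46.6 and 57.8 CPM in SAH 1d cortex. Its interval was narrow, from -0.23 to 0.10 around a log2 fold change of -0.07 (edgeR adjusted p = 0.551). Steap3, the endosomal reductase that makes iron ready for that transporter, had 9.12, 10.6 and 13.2 CPM in sham cortex and 8.08, 9.51 and 11.6 CPM in SAH 1d cortex. No SAH 1d library exceeded the highest sham library, and the log2 fold change was -0.19 (95% interval -0.45 to 0.08, edgeR adjusted p = 0.28). For Tfrc and Slc11a2 the sign of these small differences turned in limma on log2(FPKM + 1), to 0.03 and 0.08.

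Slc40a1 encodes ferroportin, the only known exporter of iron from mammalian cells, and its main row had 7.76, 8.45 and 13.7 CPM in sham cortex. In the SAH 1d group it had 6.13, 6.78 and 23.0 CPM. The group was split: SAH 1d-3 lay above every sham library, while the other 5 lay between 6.13 and 8.23 CPM, at or below the sham median. With all libraries the log2 fold change was 0.02 (95% interval -0.68 to 0.71, edgeR adjusted p = 0.977). Without SAH 1d-3 it was -0.47 and was called (adjusted p = 0.0382), so the value for ferroportin was decided by 1 library. Over the 12 fits that left out 1 library each, its adjusted p ranged from 0.0382 to 1.0. The second row of Slc40a1 was lower in count, with 2.17 to 3.14 CPM in sham cortex and 1.77 to 9.02 CPM in SAH 1d cortex, and its log2 fold change was 0.36 (95% interval -0.45 to 1.16, edgeR adjusted p = 0.51). In SAH 7d-4 the second row had 0 counts while the main row had 435, so reads of the gene were not shared between the rows in the same way in every library.

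Cp, which encodes ceruloplasmin, the copper oxidase that loads exported iron onto transferrin, had 9.49, 14.2 and 34.4 CPM in sham cortex. Its SAH 1d values were 67.0, 75.9 and 183 CPM. The lowest SAH 1d library was above the highest sham library, and 5 of the 6 SAH 1d libraries lay between 67.0 and 93.9 CPM. Cp rose 5.20-fold (95% interval 3.12 to 8.68), a log2 fold change of 2.38 (SE 0.34, edgeR adjusted p = 0.00058). Without SAH 1d-3 the log2 fold change was 2.08 (adjusted p = 0.000183). Cp was called under every alternative test and with each library left out, with adjusted p from 1.84e-11 to 0.0319. SAH 1d-4 and SAH 1d-6 had 756 and 1095 CPM of choroid plexus markers, against at most 37.5 in the other SAH 1d libraries, and their Cp levels were 73.9 and 76.4 CPM. The part of choroid plexus tissue in the Cp values was not tested.

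Hamp, which encodes hepcidin, was at the edge of detection. It had 2 counts in SAH 1d-1, 2 counts in SAH 1d-2 and 0 counts in the other 16 libraries. A count of 0 over the whole sham group allows up to 0.0162 CPM and over the SAH 7d group up to 0.0161 CPM, both taken as 3 counts of the group's total and covering counting error only. A difference in Hamp was not detectable at this depth, and no fold is given.

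Ireb2, iron regulatory protein 2, had 24.8, 29.0 and 30.0 CPM in sham cortex and 24.7, 32.7 and 47.2 CPM in SAH 1d cortex. In 5 of 6 SAH 1d libraries the level was above every sham library, while SAH 1d-2 lay at the bottom of both groups. The log2 fold change was 0.22 (95% interval -0.05 to 0.50) and was not called (edgeR adjusted p = 0.209), and without SAH 1d-3 it was 0.10 (adjusted p = 0.418). Aco1, the cytosolic aconitase that acts as iron regulatory protein 1 when it loses its iron-sulfur cluster, had 38.9, 44.7 and 49.1 CPM in sham cortex and 38.6, 46.8 and 52.6 CPM in SAH 1d cortex. Its groups overlapped, and the log2 fold change of 0.07 had a narrow interval of -0.13 to 0.26 (edgeR adjusted p = 0.61). SAH 1d-3, the library with the highest Ireb2, had the lowest Aco1.

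**Figure D2:**
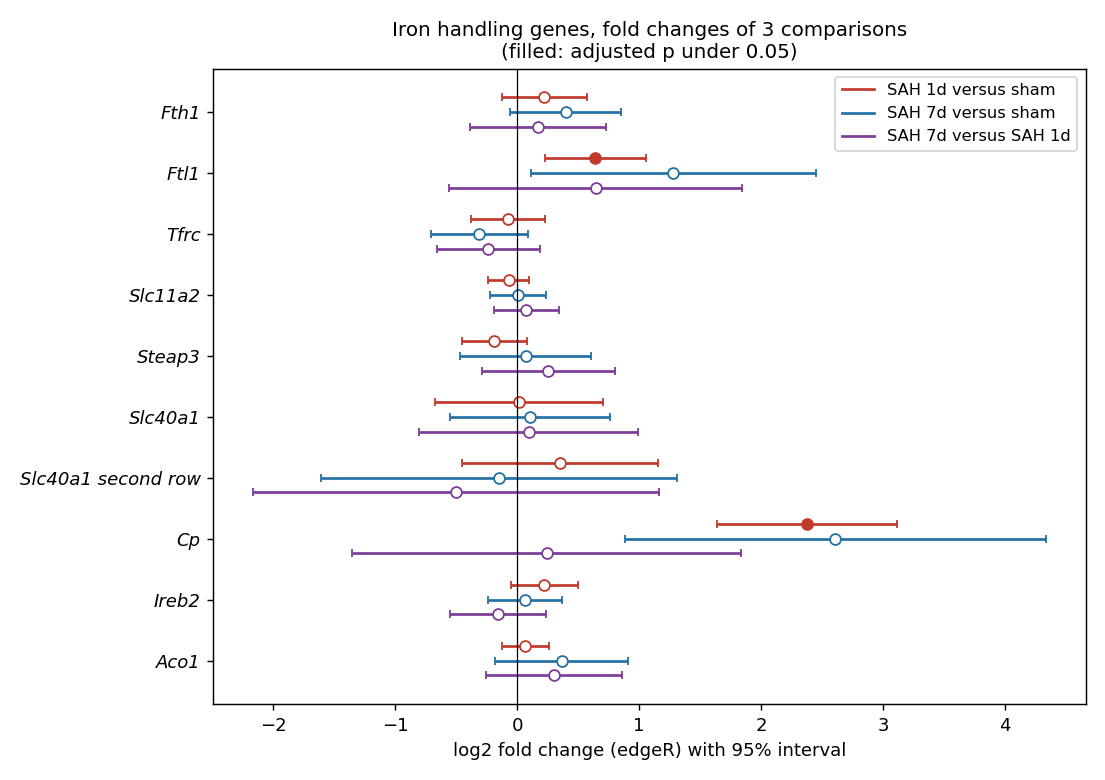
log2 fold changes of the 10 tested rows with 95% intervals in 3 comparisons (edgeR, 12 libraries each), with filled points at an adjusted p under 0.05. The 2 filled points are Cp and Ftl1 in SAH 1d versus sham, and their intervals in SAH 7d versus sham are wider and not called.

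The second comparison asks what was left 7 days after the bleed. It shares its sham libraries with the first. No member was called in SAH 7d versus sham by edgeR, and none of the 18444 genes was (0% called). The paper does report genes that differ between these groups, mostly higher in SAH 7d, at an adjusted p under 0.05 and at least 2-fold. The cause of this difference was not tested. SAH 7d-5 lay apart from its group by Dixon's critical value in 25.9% of tested genes. The share of all genes called without it is not given, so 0% does not show that nothing differed. At an unadjusted p under 0.05, 2 of the 10 rows passed, Cp and Ftl1, against 15.4% of all genes. No member had groups that did not overlap, against 1.27% of all genes. limma voom, the limma tests on FPKM and the edgeR fit of all libraries called 0 members too. DESeq2 also called 0 but gave no adjusted p for Cp and Ftl1. The share of all genes called by these other tests is not given, so their counts have no background.

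Cp had 25.7, 32.8 and 482 CPM in SAH 7d cortex. All 6 SAH 7d libraries were above the sham mean and 2 were above the highest sham library. The log2 fold change of 2.61 (SE 0.79, edgeR adjusted p = 0.219) fell to 0.97 without SAH 7d-5 (adjusted p = 0.212), when the group mean was 35.5 ± 11.6 CPM (SD, n = 5) against 18.1 ± 9.54 in sham cortex (n = 6). Leaving out each library in turn gave adjusted p from 0.13 to 0.429.

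Ftl1 had 6.29, 8.55 and 61.1 CPM in SAH 7d cortex, with 2 of 6 libraries above every sham value. Its log2 fold change was 1.28 (95% interval 0.11 to 2.45, edgeR adjusted p = 0.295) with all libraries and 0.25 (adjusted p = 0.553) without SAH 7d-5. Fth1 had 767, 1122 and 2096 CPM, with 4 of 6 SAH 7d libraries above every sham library and a log2 fold change of 0.40 (95% interval -0.05 to 0.86, edgeR adjusted p = 0.364), which was 0.18 without SAH 7d-5 (adjusted p = 0.601). Both ferritin chains were highest in SAH 7d-5.

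Tfrc had 90.1, 110 and 195 CPM in SAH 7d cortex, and 5 of the 6 libraries were below the sham mean. Its log2 fold change of -0.31 (95% interval -0.71 to 0.09) was not called (edgeR adjusted p = 0.404), and without SAH 7d-5 it was -0.48 (adjusted p = 0.157). Slc11a2 had 44.5, 49.0 and 68.2 CPM and Steap3 had 7.66, 9.69 and 22.0 CPM, and in both the median was below that of the sham group while the highest value, from SAH 7d-5, was above every sham library. Their log2 fold changes were 0.01 and 0.07 (edgeR adjusted p = 0.967 and 0.886).

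The main row of Slc40a1 ranged from 5.18 to 17.7 CPM around a median of 8.63 in SAH 7d cortex and spread widely on both sides of the sham values. Its log2 fold change was 0.11 (95% interval -0.55 to 0.76, edgeR adjusted p = 0.854). The second row had -0.15 (95% interval -1.61 to 1.31, edgeR adjusted p = 0.913). Ireb2 had 23.5, 28.5 and 44.4 CPM and a log2 fold change of 0.07 (edgeR adjusted p = 0.797). Aco1 had 40.8, 45.3 and 119 CPM and a log2 fold change of 0.37 (edgeR adjusted p = 0.457). In 5 of the 6 SAH 7d libraries Aco1 lay between 40.8 and 47.2 CPM, within the sham range, and without SAH 7d-5 its log2 fold change was 0.01.

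Between SAH 7d and SAH 1d, no member was called by edgeR (1.37% of all genes were) and none had an unadjusted p under 0.05 (14.7% of all genes did). No member had groups that did not overlap, against 3.06% of all genes. DESeq2 called 0 members, without an adjusted p for Cp and Ftl1, whereas limma voom with sample quality weights called 1. That was Cp, at a log2 fold change of -1.18 (limma voom adjusted p = 0.0042). The share of all genes called by these other tests is not given. The edgeR value for Cp was 0.24 (95% interval -1.35 to 1.83, adjusted p = 0.915). Only 1 of 6 SAH 7d libraries, SAH 7d-5, was above the SAH 1d mean of Cp, and without it the log2 fold change was -1.43 (adjusted p = 0.0126). Without SAH 7d-5 and SAH 1d-3 it was -1.13 (adjusted p = 0.00233). The other 5 SAH 7d libraries, at 25.7 to 55.6 CPM, were all below the lowest SAH 1d library. Over the alternatives with all libraries and those with libraries left out, the adjusted p of Cp ranged from 0.00233 to 0.954. The remaining 9 rows had log2 fold changes from -0.50 to 0.64, with adjusted p of at least 0.62. The highest of these, 0.64, was that of Ftl1, which was -0.41 without SAH 7d-5 (adjusted p = 0.268).

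Transcripts of an uptake and an export gene were compared by the log2 ratio of Tfrc to the main row of Slc40a1 in FPKM. It was 3.51 ± 0.37 (SD, n = 6) in sham cortex, 3.59 ± 0.55 in SAH 1d cortex and 3.19 ± 0.41 in SAH 7d cortex. SAH 1d differed from sham by 0.07 (exact permutation p = 0.84, adjusted 0.983), SAH 7d from sham by -0.32 (exact permutation p = 0.175, adjusted 0.286) and SAH 7d from SAH 1d by -0.40 (exact permutation p = 0.186, adjusted 0.286). The smallest p that 6 against 6 libraries allow is 0.00216. SAH 7d-4, which had 0 counts in the second row of Slc40a1, had the lowest ratio of its group, 2.723. Over 3 alternatives, which included the sum of the 2 rows, SAH 7d differed from sham by -0.32 to -0.27. From SAH 1d it differed by -0.56 to -0.29. SAH 1d-3 had the lowest value of its group, 2.499, and without it SAH 7d was lower than SAH 1d by 0.61 (exact permutation p = 0.0173, unadjusted).

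The cell type markers moved with some of these values, and their part in them was not tested. The summed level of 6 astrocyte markers was 2073 to 3824 CPM in sham cortex, 4547 to 5721 in SAH 1d cortex and 2564 to 5531 in SAH 7d cortex, with the SAH 1d libraries above every sham library, as for Cp. Only 1 of these 6 markers was called higher, Gfap, at 284 to 542 CPM in sham and 2258 to 3807 in SAH 1d cortex, and 1 was called lower. The 6 monocyte and macrophage markers in the table summed to 50.5 to 92.1 CPM in sham cortex and 95.9 to 577 in SAH 1d cortex, and 4 of them were called higher. The 6 neutrophil markers summed to 1.89 to 6.09 CPM in sham cortex and 6.23 to 56.9 in SAH 1d cortex, highest in SAH 1d-3. The 2 that could be tested were both called higher in SAH 1d versus sham. In SAH 7d cortex the 6 markers summed to 3.71 to 89.4 CPM, highest in SAH 7d-5. Csf3r alone had 88.2 CPM in SAH 7d-5, where every other marker of the list had at most 0.688 CPM. All 6 neuron markers were called lower in SAH 1d cortex, with sums of 5392 to 8754 CPM in sham cortex and 4382 to 5395 in SAH 1d cortex. Red cell markers summed to 13.3 to 109 CPM in sham cortex, 52.2 to 191 in SAH 1d cortex and 1.68 to 66.2 in SAH 7d cortex, with 0 of 6 tested called (edgeR, with 0 at an unadjusted p under 0.05). The 6 microglia markers summed to 255 to 457 CPM in sham cortex and 322 to 363 in SAH 1d cortex. In SAH 1d versus sham 1 of them was called lower and 0 were called higher. In SAH 7d cortex the microglia sums were 320 to 2419 CPM, with 2419 in SAH 7d-5 and at most 1018 in the rest of that group. In the microglia, oligodendrocyte, neuron and astrocyte lists no marker was at 0 in a whole group.

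**Figure D3:**
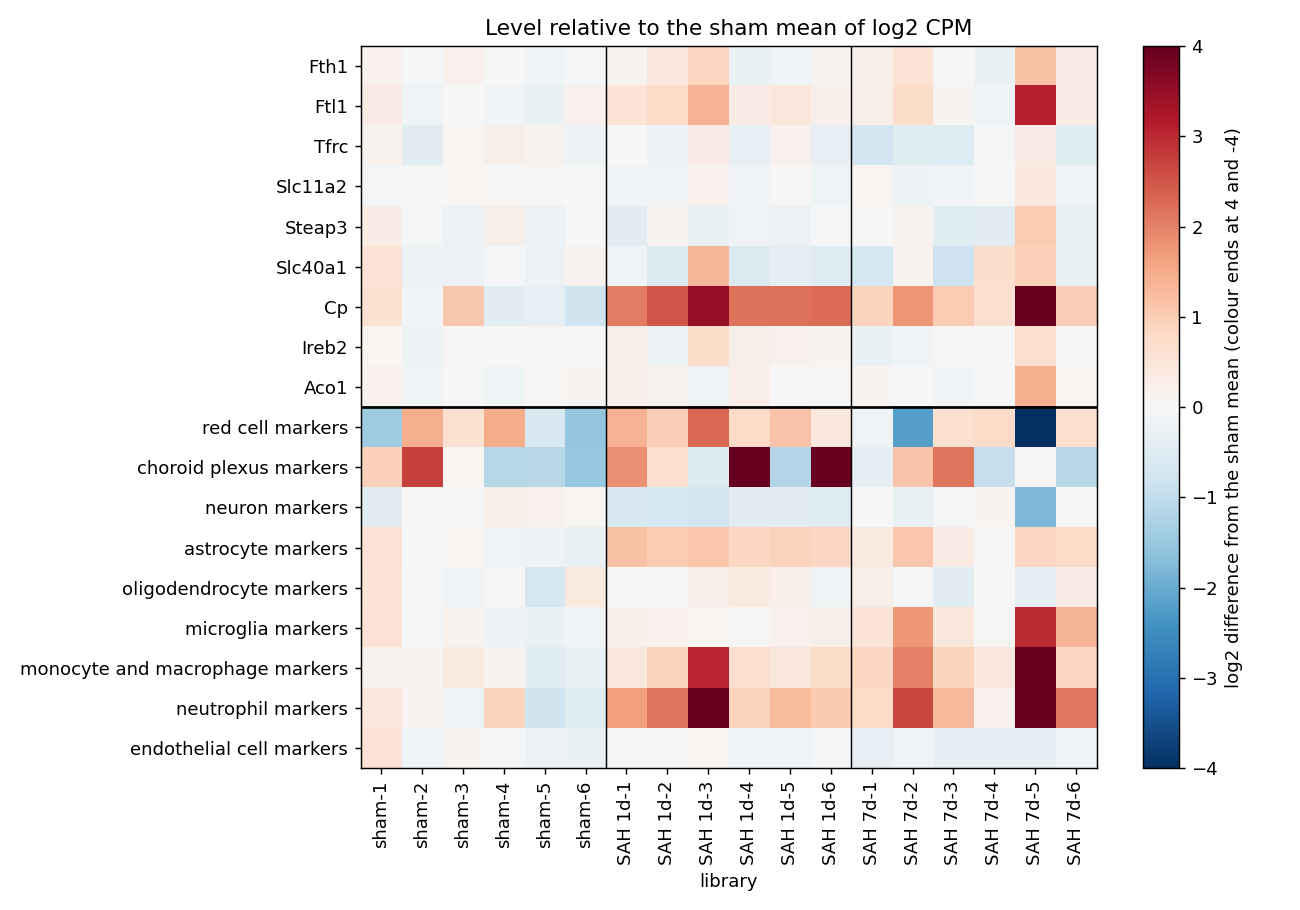
Log2 difference of each library from the mean of the sham group for 9 iron handling genes (above the line) and for the summed CPM of 9 marker lists (below it), with colours ending at 4 and -4. The Cp row is red in all 6 SAH 1d libraries, and the SAH 7d-5 column is red for all 9 genes and for the monocyte and macrophage list, which had 8720 CPM there.

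Of 32 other iron genes, 31 symbols were found and 26 rows passed the filter. In SAH 1d versus sham, 5 of these 26 were higher, 1 was lower and 20 were not called, against the same 25.4% of all genes. Their median log2 fold change was 0.22. By role, 3 of 6 carriers and uptake genes, 2 of 4 genes listed as ferrireductases and 1 of 7 mitochondrial iron rows were called. None of the 2 rows for ferritin turnover, the 1 export oxidase, the 3 genes of hepcidin control or the 3 sensing genes was called (edgeR, with 0 at an unadjusted p under 0.05 in these 4 roles).

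Among the carriers, Lcn2, which encodes lipocalin 2, a protein that binds iron carried by siderophores, was at 0.424 to 0.789 CPM in sham cortex and 9.23 to 66.9 CPM in SAH 1d cortex. It rose 47.4-fold (log2 fold change 5.57, SE 0.42, edgeR adjusted p = 9.39e-06). Slc22a17, which encodes a receptor for lipocalin 2, was at 508 to 652 CPM in sham and 272 to 452 CPM in SAH 1d cortex and fell, with a log2 fold change of -0.55 (SE 0.12, edgeR adjusted p = 0.00708). Tf, the transferrin that takes up the iron oxidised by ceruloplasmin, was at 336 to 631 CPM in sham cortex and 722 to 1688 CPM in SAH 1d cortex and rose 2.21-fold (log2 fold change 1.14, SE 0.20, edgeR adjusted p = 0.00188). In all 3 genes the groups did not overlap. SAH 1d-3 had the lowest Slc22a17 of its group, where the rest had 425 to 452 CPM. It also had the highest Tf, where the rest had 722 to 1317 CPM. No value without SAH 1d-3 is given for the called genes of this list. In SAH 1d-4 and SAH 1d-6, the libraries with high choroid plexus markers, Lcn2 was 66.9 and 23.2 CPM and Tf 1317 and 1024 CPM. The other SAH 1d libraries had 9.23 to 34.9 CPM of Lcn2 and 722 to 1688 CPM of Tf. The part of choroid plexus tissue in these values was not tested.

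In the list named ferrireductases, the called genes were Steap1 (log2 fold change 2.09, SE 0.41, edgeR adjusted p = 0.00362) and Cybrd1 (log2 fold change 0.79, SE 0.24, edgeR adjusted p = 0.0301). Both were low, at most 5.38 CPM in SAH 1d cortex. The list was chosen by symbol, and whether Steap1 acts as a reductase by itself was not examined. Steap1 and Cybrd1 were highest in SAH 1d-3 within that group, at 5.35 and 5.38 CPM, where the rest had at most 2.77 and 4.16 CPM. The mitochondrial importer Slc25a28 rose by 0.30 (SE 0.10, edgeR adjusted p = 0.0383). In SAH 7d versus sham and in SAH 7d versus SAH 1d, 0 of the 26 rows were called by edgeR, where 0% and 1.37% of all genes were, and 5 had an unadjusted p under 0.05 in each, against 15.4% and 14.7% of all genes. The SAH 7d levels of Tf were 463 to 919 CPM and those of Lcn2 0.722 to 12.6 CPM.

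**Figure D4:**
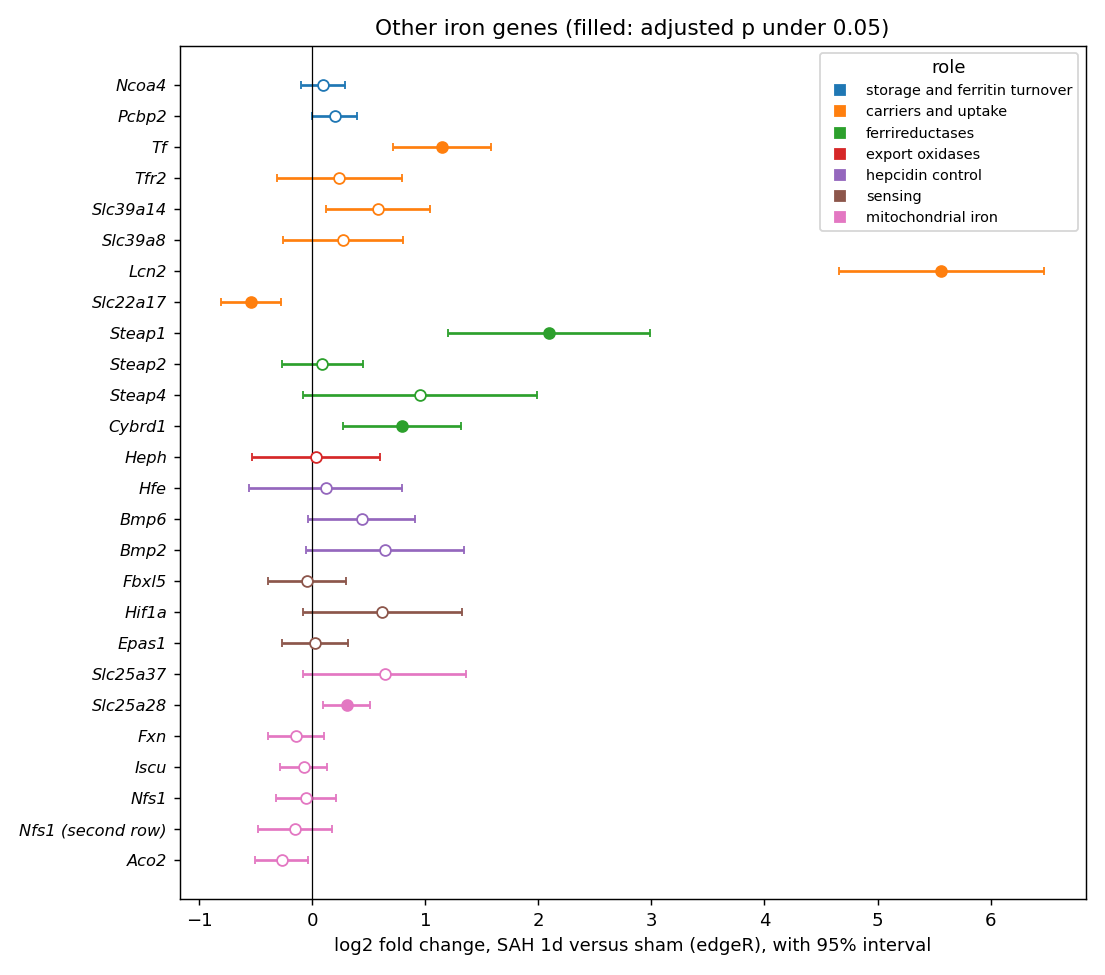
log2 fold changes of the 26 tested rows of other iron genes in SAH 1d versus sham (edgeR) with 95% intervals, coloured by role and filled at an adjusted p under 0.05. Lcn2, Steap1 and Tf have the largest called increases and Slc22a17 is the 1 called decrease.

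The genes with the profiles most like the 2 called members were found by the root mean square difference of log2 CPM over the 18 libraries, each centred on its sham mean, among 15344 genes with a symbol. For Ftl1 they were Scamp2 (difference 0.18) and Sgpl1 (difference 0.19), which had 122 and 308 CPM in SAH 7d-5. Among those for Cp was Ms4a6a (difference 0.44), which had 54.4 CPM in SAH 7d-5. The members themselves had root mean squares of 0.87 for Ftl1 and 1.97 for Cp. The genes named were picked for the smallest differences among the 15344 genes, so low values were fixed by that choice. The 18 points share the 2 libraries that stand apart, and the likeness is a description.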

How the data were processed

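RNA-seq was made from the cortex of 18 rats, 6 libraries per group. The submitters' processing notes name fastp, HISAT2 and DESeq2 1.16.1, and the mm9 build of the mouse, while the paper names the Rnor_6.0 rat genome and its Ensembl identifiers are of the rat. The program that counted reads is not given in the sources used here. The counts deposited by the authors are whole numbers per gene and library without normalization, and the FPKM values deposited by the authors are scaled to transcript length and mapped reads. Libraries carry the names of their columns, and 0 columns belonged to other samples. Total counts were 27270026 to 38271014 per library, and the errors given rest on the spread over rats.

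Counts were tested with edgeR 4.0.16 in R 4.3.3 (filterByExpr on all 18 libraries, TMM, two-sided quasi-likelihood F test on the 12 libraries of each comparison, Benjamini-Hochberg adjustment over 18444 genes). The script was tested on simulated data. Ratios of FPKM were compared with two-sided exact permutation tests, 6 against 6 libraries, in Python 3.11.15 with scipy 1.17.1. Alternatives were DESeq2 size factors, the DESeq2 1.42.0 Wald test, limma 3.58.1 voom with sample quality weights, a robust fit, all libraries in 1 fit, a replicate block, no filter, at least 10 counts in every library, and limma with a trend on log2(FPKM + 1) and log2(FPKM + 0.1) for a mean FPKM of at least 0.5 or without that filter. Libraries were also left out singly, and the pair SAH 7d-5 and SAH 1d-3 jointly. Summing the 2 rows of Slc40a1 was chosen after seeing the data. The members, the other lists and the tests were chosen with earlier results of these data known. All members are named in every comparison, other iron genes where they were called, and the 2 closest profiles for each called member, of which 1 is not reported here.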

Additional observations from a re-analysis of the deposited data

Results flagged for a closer look

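In 37 groups of 6 libraries, the gap between the highest or lowest library and its nearest neighbour was compared with the range of the group, by Dixon's critical value at the 95% level. Chance flags about 1 in 20 groups. Of the 37, 13 were flagged, and the library was SAH 7d-5 in 8 of them, SAH 1d-3 in 4 and sham-2 in 1. Over all tested genes, the same rule flagged 8.18% of genes in sham, 19.7% in SAH 1d and 28.0% in SAH 7d, with SAH 1d-3 as the library for 17.0% and SAH 7d-5 for 25.9% of genes.

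SAH 7d-5 was far above the rest of its group for Cp at 481.8 CPM, Aco1 at 119 CPM, Slc11a2 at 68.19 CPM, Ftl1 at 61.13 CPM, Ireb2 at 44.41 CPM, Steap3 at 22.01 CPM and the second row of Slc40a1 at 6.669 CPM. Its log2 ratio of Fth1 to Ftl1 was far below the rest, at 5.23. SAH 1d-3 was far above its group for Cp at 183.4 CPM, the main row of Slc40a1 at 23.03 CPM and the second row of Slc40a1 at 9.017 CPM, and its log2 ratio of Tfrc to Slc40a1 was far below the rest, at 2.499. In the sham group, Ireb2 was flagged as low in sham-2, at 24.81 CPM, where the other libraries had 28.5 to 30.0 CPM.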

How the results depend on the processing

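The calls of Cp and Ftl1 in SAH 1d versus sham held under DESeq2, limma voom, the DESeq2 size factors, the robust fit, both filters and all 3 limma tests on FPKM, while the fit of all 18 libraries called 1 member, Cp. Leaving out 1 library gave 1 to 3 calls in that comparison and 0 to 1 in SAH 7d versus SAH 1d. Limma voom gave 1 call in SAH 7d versus SAH 1d, as did leaving out SAH 7d-5 and SAH 1d-3. The cause was not tested. The share of all genes called under these settings is not given, so these counts of members have no background beside them. Values that turned sign under a setting follow, with those that were called marked.

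With each library left out in turn, log2 fold changes in SAH 1d versus sham ranged from -0.47 (called, without SAH 1d-3) to 0.15 for Slc40a1 and from -0.23 to 0.48 for its second row. In SAH 7d versus sham they ranged from -0.088 to 0.049 for Slc11a2, -0.23 to 0.17 for Steap3, -0.13 to 0.25 for Slc40a1, -0.80 to 0.10 for its second row and -0.079 to 0.13 for Ireb2. In SAH 7d versus SAH 1d they ranged from -0.059 to 0.33 for Fth1, -0.41 to 0.84 for Ftl1, -0.034 to 0.13 for Slc11a2, -0.055 to 0.35 for Steap3, -0.16 to 0.58 for Slc40a1, -1.18 to 0.085 for its second row, -1.43 (called, without SAH 7d-5) to 0.54 for Cp and -0.075 to 0.38 for Aco1. The log2 ratio of Fth1 to Ftl1 ranged from -0.047 to 0.34 in SAH 7d versus SAH 1d. That of Tfrc to Slc40a1 ranged from -0.014 to 0.29 in SAH 1d versus sham. In SAH 7d versus SAH 1d it kept its sign, from -0.61 to -0.30.

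Without SAH 7d-5 and SAH 1d-3, SAH 1d versus sham gave -0.47 for Slc40a1 (called) and -0.23 for its second row. SAH 7d versus sham gave -0.088 for Slc11a2, -0.23 for Steap3, -0.13 for Slc40a1 and -0.079 for Ireb2, and SAH 7d versus SAH 1d gave -0.21 for Ftl1, -0.079 for Steap3, -1.13 for Cp (called) and -0.12 for Aco1. The ratio of Fth1 to Ftl1 then differed by 0.32 and that of Tfrc to Slc40a1 by -0.56 between SAH 7d and SAH 1d (each with an exact permutation p of 0.0318, unadjusted).

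With limma voom, SAH 1d versus sham gave -0.34 for Slc40a1 and -0.13 for its second row. SAH 7d versus sham gave -0.090 for Slc11a2, -0.24 for Steap3, -0.17 for Slc40a1 and -0.051 for Ireb2, and SAH 7d versus SAH 1d gave -0.21 for Ftl1, -0.073 for Steap3, -1.18 for Cp (called) and -0.092 for Aco1. On log2(FPKM + 0.1), SAH 1d versus sham gave 0.031 for Tfrc, 0.087 for Slc11a2 and -0.037 for Slc40a1, and SAH 7d versus SAH 1d gave -0.041 for Slc11a2 and -0.75 for Cp. On log2(FPKM + 1), with and without the filter, these values were 0.030, 0.082, -0.0077, -0.038 and -0.69. With the 2 rows of Slc40a1 summed, chosen after seeing the data, Slc40a1 gave -0.040 in SAH 7d versus SAH 1d.

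The replicate numbers did not pair the rats: same-numbered libraries deviated together with correlations from -0.253 to 0.197. With the replicate block, 2, 0 and 0 members were called in the 3 comparisons, as without it. The share of all genes called with the block is not given. The block turned Slc40a1 to -0.18 in SAH 1d versus sham, Slc11a2 to -0.0070, Steap3 to -0.036 and Slc40a1 to -0.018 in SAH 7d versus sham, and Cp to -0.91 in SAH 7d versus SAH 1d. Hamp, at 4 counts in all, and the rows that fail a filter have no values there.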
